A study of Mus musculus with 14 samples.

Results

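The 10 genes described here encode the core of the transforming growth factor β (TGF-β) pathway: the ligands Tgfb1 and Tgfb3, the ligand-tethering protein Lrrc32, the receptors Tgfbr1 and Tgfbr2, the co-receptors Tgfbr3 and Eng, and the signal transducers Smad2, Smad3 and Smad4. They were taken by name, through their Entrez identifiers, as 10 of the 27179 genes in a table of bulk RNA sequencing from CD4 T cells of C57BL/6 mice. Naive cells had been activated for 3.5 days on plate-bound antibodies to CD3 and CD28 in 3 cultures. Th1 (5 libraries) is the culture toward interferon-γ-producing helper cells, TfhA (4 libraries) is the culture toward follicular helper T cells with an antibody against TGF-β, and Tfh5 (5 libraries) is the follicular helper culture with 5 ng/ml TGF-β. No follicular helper culture without both the antibody and added TGF-β is among these libraries. A difference between Tfh5 and TfhA therefore cannot be assigned to the addition or to the blockade alone. The cells were sorted by flow cytometry into lysis reagent. No allele or deletion is named for any group, and the sources used here do not give the sort gate, the other cytokines of each culture or the age and number of the animals. They also do not say that each library is from its own animal or culture, so that p-values measure only the spread between these samples.

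TGF-β is secreted inside a latent complex and acts after release from it. Active ligand binds the type II receptor Tgfbr2, which phosphorylates the type I receptor Tgfbr1. Tgfbr1 in turn phosphorylates Smad2 and Smad3, and these bind the shared partner Smad4 and enter the nucleus to regulate genes. In CD4 T cells the pathway is known for restraining Th1 differentiation and for its part in the differentiation of regulatory and interleukin-17-producing T cells.

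In Tfh5, the culture given TGF-β, the transcripts of both signalling receptors, the co-receptor Eng and all 3 SMAD transducers were higher than in TfhA, where TGF-β was blocked, while the co-receptor Tgfbr3 and the tethering protein Lrrc32 were lower. Tgfbr1 rose 7.13-fold and Tgfbr2 3.75-fold, Lrrc32 fell 5.40-fold, and the ligand gene Tgfb3 rose 4.47-fold. Tgfb1, the most abundant of the 10 per kilobase of exon, had mean levels of 328 to 357 CPM in the 3 cultures and passed in no comparison. Smad3 was already 3.54-fold higher in TfhA than in Th1. Levels are in CPM, the count of a gene relative to the library total after scaling by the trimmed mean of M-values, with mean ± SD between libraries. Tests are edgeR quasi-likelihood F tests with Benjamini-Hochberg adjustment over 13075 tested genes, passed at an adjusted p under 0.05, and log2 fold changes are given ± SE.

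Of the 10 genes, 9 passed in the comparison of Tfh5 with TfhA, 7 higher and 2 lower in Tfh5. Among all tested genes 57.5% passed, 27.4% higher and 30.1% lower. The libraries of Tfh5 and TfhA did not overlap for 8 of the 10 genes, beside 44.2% of all tested genes. A change of at least 2-fold was reached by 4 of the 10, beside 23.7% of all tested genes. The median log2 fold change of the 10 was 0.62, and that of all tested genes was -0.01. All 10 passed the filter on low counts, with 32 to 6751 counts in a library. In bulk RNA, fewer cells with a transcript and less transcript per cell cannot be told apart.

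**Figure D1:**
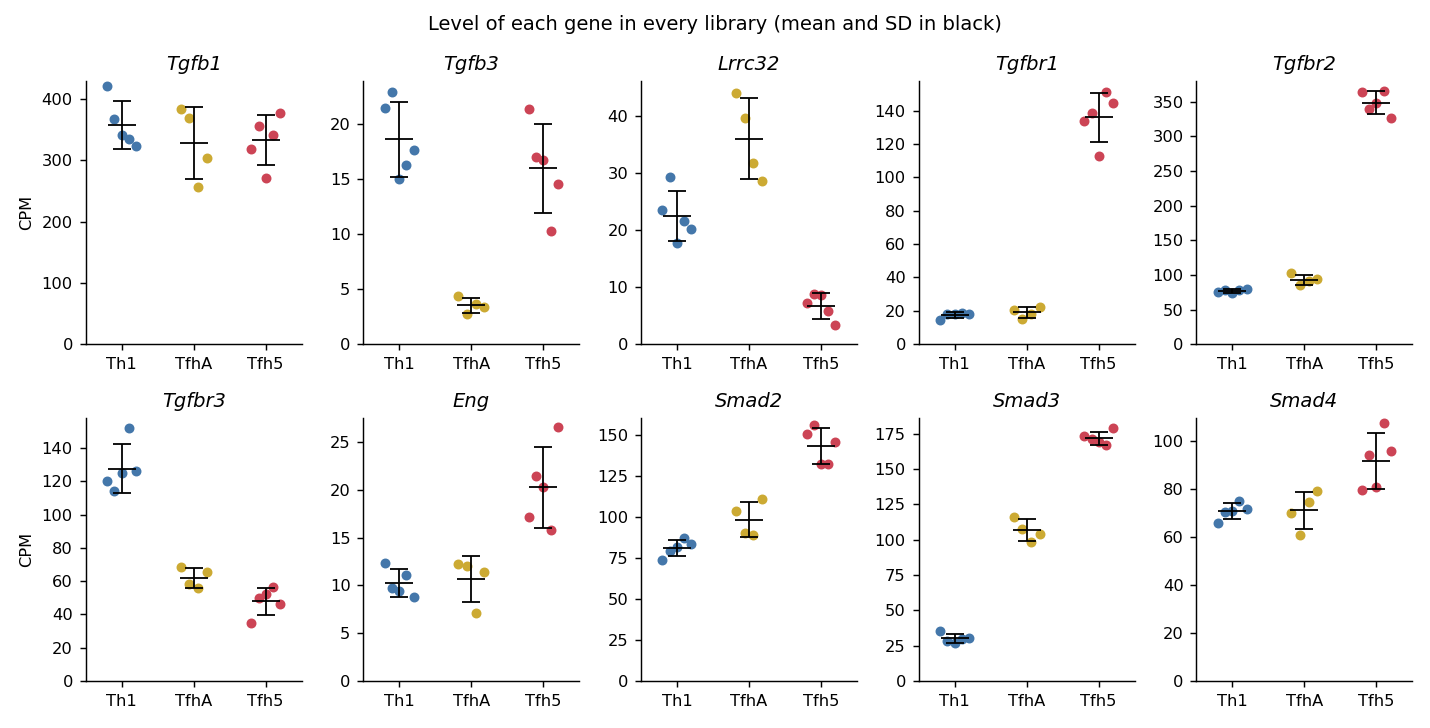
Level of each gene in CPM (linear axis from 0) in every library of Th1 (n = 5), TfhA (n = 4) and Tfh5 (n = 5); points are libraries, and black marks are the mean and SD. Tgfbr1 lies between 112 and 151 CPM in Tfh5 and below 23 CPM in both other cultures, whereas Tgfb1 overlaps across all 3.

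Library totals ran from 8805921 to 16108059 counts. For each of 26 pairs of libraries within a group, a chi-square test of their counts gave 4.15 to 30.6 per degree of freedom, where counting error alone gives 1. Th1 replicate 1 and Tfh5 replicate 1 had lower levels of long genes than the other libraries of their groups: the median deviation of genes over 6 kb minus that of genes under 2 kb was -0.153 and -0.317 (log2), against -0.081 to 0.146 in the other 12 libraries. Without both of them the number of the 10 genes that passed was the same in all 3 comparisons (9, 6 and 8). All 12 markers of CD4 T cells were present in every group, with summed levels of 5900 to 8476 CPM. Markers of B cells summed to at most 10.4 CPM and those of myeloid cells to at most 15.7 CPM in any library, both highest in TfhA. Markers of CD8 T and natural killer cells summed to between 26.6 and 55.2 CPM in Th1, 47.2 and 60.5 in TfhA, and 66.2 and 111 in Tfh5, most of it Klrd1 and Cd8b1, and Cd8a was under 2 CPM on average. Markers of fibroblasts summed to 10.9 to 19.0, 56.9 to 65.9 and 1.27 to 6.94 CPM, mainly from Lum.

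The ligands come first. Tgfb1 (Entrez gene 21803, mm10 chromosome 7, 25687002 to 25705077) encodes the main TGF-β of lymphocytes. Its level was 421, 368, 341, 334 and 323 CPM in the Th1 libraries, 384, 369, 256 and 304 CPM in TfhA, and 319, 356, 270.3, 341 and 376 CPM in Tfh5. The 3 groups overlapped throughout. The log2 fold change was 0.02 ± 0.12 between Tfh5 and TfhA (95% confidence interval -0.22 to 0.26, adjusted p = 0.909), -0.12 ± 0.12 between TfhA and Th1 (adjusted p = 0.416) and -0.10 ± 0.11 between Tfh5 and Th1 (adjusted p = 0.419). The interval for Tfh5 against TfhA corresponds to 0.857-fold to 1.20-fold, which bounds the difference that these libraries leave room for.

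Tgfb3 (Entrez gene 21809, chromosome 12, 86056743 to 86079041), a second ligand that binds the same receptors, was low in TfhA only. It had 21.5, 22.9, 15.0, 16.2 and 17.6 CPM in Th1, 4.39, 2.73, 3.68 and 3.40 CPM in TfhA, and 21.3, 17.0, 16.7, 10.3 and 14.6 CPM in Tfh5. No TfhA library reached the lowest library of either other group, and the ranges of Th1 and Tfh5 overlapped. Tgfb3 was 5.22-fold lower in TfhA than in Th1 (log2 fold change -2.38 ± 0.21, adjusted p = 1.81e-09) and 4.47-fold higher in Tfh5 than in TfhA (2.16 ± 0.21, adjusted p = 4.56e-09). Between Tfh5 and Th1 it did not pass (-0.22 ± 0.17, 95% confidence interval -0.58 to 0.13, adjusted p = 0.26). Short parts of its exons overlap the annotated antisense genes Gm37804 (4.8% of the exon length) and Gm48008 (7.6%), whose reads could be told apart only if the counting used strand, a setting that the sources used here do not give.

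The share of Tgfb3 in the sum of Tgfb3 and Tgfb1, taken per kilobase of exon within each library, was 3.23% ± 0.413 in Th1, 0.708% ± 0.181 in TfhA and 3.05% ± 0.931 in Tfh5. The TfhA libraries (0.473% to 0.914%) lay below all others (1.89% to 4.12%). This share does not depend on the scaling of the libraries. Its size does depend on exon length: with the exons of all annotated transcripts the 3 means were 7.19%, 1.63% and 6.78%. In each group Tgfb1 made up most of the ligand transcript. The third ligand gene, Tgfb2, was too low to be tested, with 28 counts over the Th1, 27 over the TfhA and 6 over the Tfh5 libraries.

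Lrrc32 (Entrez gene 434215, chromosome 7, 98489305 to 98501831) encodes GARP, the surface protein that holds latent TGF-β on activated regulatory T cells and platelets. It had 23.6, 29.3, 17.8, 21.6 and 20.2 CPM in Th1, 44.1, 39.7, 31.8 and 28.6 CPM in TfhA, and 7.24, 8.77, 8.59, 5.88 and 3.29 CPM in Tfh5. Every Tfh5 library was below every library of the other groups, while the highest Th1 and the lowest TfhA library overlapped. Lrrc32 was 5.40-fold lower in Tfh5 than in TfhA (log2 fold change -2.43 ± 0.21, adjusted p = 3e-10) and 3.37-fold lower than in Th1 (-1.75 ± 0.20, adjusted p = 3.58e-08). It was 1.605-fold higher in TfhA than in Th1 (0.68 ± 0.19, adjusted p = 0.00492). It thus moved against the signalling receptors in Tfh5.

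Markers of other cells were measured alongside Lrrc32, and some had its order across the cultures while others did not. Foxp3, the defining factor of regulatory T cells, was at 2.43 ± 1.48 CPM in Th1, 2.24 ± 1.21 in TfhA and 4.19 ± 1.51 in Tfh5, so that its mean was highest where Lrrc32 was lowest. It did not pass in any comparison (adjusted p = 0.0819 for Tfh5 against TfhA, 0.834 for TfhA against Th1 and 0.0926 for Tfh5 against Th1). The summed level of the 6 regulatory T cell markers was mostly Il2ra. It lay between 7416 and 8933 CPM in Th1, 2722 and 3235 in TfhA, and 2122 and 2771 in Tfh5. Of the 6, Ikzf2, Il2ra and Tnfrsf18 were lower in Tfh5 than in TfhA (log2 fold changes -0.90, -0.51 and -1.44). Ikzf4 and Ctla4 were higher (0.45 and 1.54). By mean, Ikzf2 had the order of Lrrc32, at 8.69, 9.92 and 5.30 CPM in Th1, TfhA and Tfh5. It did not pass between TfhA and Th1 (adjusted p = 0.505). The 6 platelet markers summed to 3.86 to 7.35, 14.1 to 26.2 and 5.14 to 8.82 CPM, with the integrin gene Itgb3 at 4.37, 19.1 and 3.79 CPM. The other tested platelet markers, Itga2b and Gp1ba, went the other way and were higher in Tfh5 than in TfhA (log2 fold changes 1.36 and 1.39, adjusted p = 0.0251 and 0.0232). Pf4, which defines platelets, had 1 count in Th1 and none in the other groups, and Ppbp and Gp9 had none. The 6 B cell markers summed to 1.59 to 3.31, 6.16 to 10.4 and 0.408 to 1.90 CPM, and the 8 myeloid markers to 4.65 to 7.14, 10.1 to 15.7 and 2.38 to 6.43 CPM. The fibroblast marker Lum, at 15.7, 59.0 and 2.11 CPM, had the same order as Lrrc32. Col1a1, the other fibroblast marker tested, had its highest mean in TfhA and its lowest in Th1, at 0.617, 2.36 and 1.01 CPM. Pdgfrb had 22, 1 and 0 counts over the Th1, TfhA and Tfh5 libraries. Col1a2 had 2, 1 and 0 counts, Pdgfra 0, 2 and 0, and Col3a1 none. The part of these cells in the level of Lrrc32 was not tested.

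Both signalling receptors were higher in Tfh5 than in the other cultures, and of the 10 genes Tgfbr1 had the largest fold change in each comparison with Tfh5. Tgfbr1 (Entrez gene 21812, chromosome 4, 47353222 to 47414926), the type I receptor kinase also called ALK5, had 14.4, 17.9, 18.2, 18.6 and 18.4 CPM in Th1, 20.8, 15.2, 18.2 and 22.3 CPM in TfhA, and 134, 138, 112, 151 and 145 CPM in Tfh5. Th1 and TfhA overlapped, and the lowest Tfh5 library was far above the highest of either. Tgfbr1 was 7.13-fold higher in Tfh5 than in TfhA (log2 fold change 2.83 ± 0.13, adjusted p = 1.5e-15) and 7.79-fold higher than in Th1 (2.96 ± 0.12, adjusted p = 3.64e-17). Between TfhA and Th1 it did not pass (0.13 ± 0.12, 95% confidence interval -0.13 to 0.38, adjusted p = 0.42).

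Tgfbr2 (Entrez gene 21813, chromosome 9, 116087695 to 116175363), the type II receptor kinase that first binds the ligand, had 74.9, 77.9, 74.3, 77.7 and 80.03 CPM in Th1, 103, 85.3, 90.6 and 93.6 CPM in TfhA, and 364, 340, 349, 365 and 327 CPM in Tfh5. The 3 groups did not overlap and lay in the order Th1, TfhA, Tfh5. Tgfbr2 was 3.75-fold higher in Tfh5 than in TfhA (log2 fold change 1.90 ± 0.09, adjusted p = 1.95e-15) and 4.53-fold higher than in Th1 (2.18 ± 0.08, adjusted p = 1.19e-17). The step from Th1 to TfhA was small, 1.21-fold (0.28 ± 0.08, adjusted p = 0.00866). It was not called when no filter on low counts was used (adjusted p = 0.059).

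Within the receptor pair, Tgfbr1 made up 23.5% ± 1.65 of the summed transcript per kilobase in Th1, 21.7% ± 2.05 in TfhA and 34.6% ± 2.74 in Tfh5. The Tfh5 libraries (30.5% to 37.5%) lay above all others (19.5% to 24.9%). The type II receptor was therefore the more abundant transcript of the pair in every library, and least so in Tfh5. Where Th1 replicate 1 is left out, the 4 remaining Th1 libraries lay between 23.7% and 24.9%.

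The 250 bases before the annotated start are given next for Tgfbr1, Tgfbr2, Eng and Smad3. These are 4 of the 7 genes that rose in Tfh5 over TfhA. Between TfhA and Th1 the 4 differed: Tgfbr2 and Smad3 passed, and Tgfbr1 and Eng did not. The windows of Smad2, Smad4 and Tgfb3, which also rose, are not shown. The sequences come from the RefSeq promoter table on GRCm38.p6. In it, Tgfb1, Tgfbr1, Tgfbr2, Eng and Smad3 were matched and Tgfb3, Tgfbr3 and Lrrc32 were not. Of the starts listed for Tgfbr1 the first is shown. Each is written 5′ to 3′ along the gene, and capitals mark matches to the SMAD-binding letters CAGAC (or GTCTG on the other strand) and to GGCGC (or GCGCC), a GC-rich SMAD element.
Tgfbr1, chr4:47352972-47353221, plus strand: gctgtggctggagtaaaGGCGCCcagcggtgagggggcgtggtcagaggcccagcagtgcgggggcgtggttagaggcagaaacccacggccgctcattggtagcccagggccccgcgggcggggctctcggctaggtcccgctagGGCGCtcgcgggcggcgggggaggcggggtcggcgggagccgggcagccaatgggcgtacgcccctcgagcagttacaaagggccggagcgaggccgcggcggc
Tgfbr2, chr9:116175364-116175613, minus strand: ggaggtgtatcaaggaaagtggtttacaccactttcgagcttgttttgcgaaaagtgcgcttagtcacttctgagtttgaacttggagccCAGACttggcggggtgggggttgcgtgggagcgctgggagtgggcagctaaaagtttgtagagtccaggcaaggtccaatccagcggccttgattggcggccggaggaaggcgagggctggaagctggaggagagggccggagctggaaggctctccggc
Eng, chr2:32646345-32646594, plus strand: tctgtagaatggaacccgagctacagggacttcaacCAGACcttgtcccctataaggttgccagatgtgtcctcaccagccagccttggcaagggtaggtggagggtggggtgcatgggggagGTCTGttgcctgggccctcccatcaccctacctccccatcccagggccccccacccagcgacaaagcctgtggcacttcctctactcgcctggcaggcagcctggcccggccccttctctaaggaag
Smad3, chr9:63757995-63758244, minus strand: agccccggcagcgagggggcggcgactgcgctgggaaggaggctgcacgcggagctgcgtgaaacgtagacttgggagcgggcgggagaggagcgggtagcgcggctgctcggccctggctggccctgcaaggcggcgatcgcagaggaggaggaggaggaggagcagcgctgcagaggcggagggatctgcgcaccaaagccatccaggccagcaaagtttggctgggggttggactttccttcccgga

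CAGAC was found once before Tgfbr2, 160 bases before the start, and at 2 places before Eng, 214 and 127 bases before it. The windows of Smad3 and Tgfb1 and the first window of Tgfbr1 held none, and the second window of Tgfbr1, which is not shown, held CAGAC once, 203 bases before its start. GGCGC was found at 3 places before Tgfbr1 (233, 232 and 104 bases before the start, the first 2 overlapping on opposite strands) and at 1 place before Tgfb1, which passed in no comparison. Of 32851 promoter windows of this length in the table, 42.2% held CAGAC on either strand, 32.0% held GGCGC, and 0.167% held the palindrome GTCTAGAC. No window of Tgfb1, Tgfbr1, Tgfbr2, Eng or Smad3 held this palindrome. Windows of Smad2 and Smad4 were not searched. Matches are a description of the letters only.

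**Figure D2:**
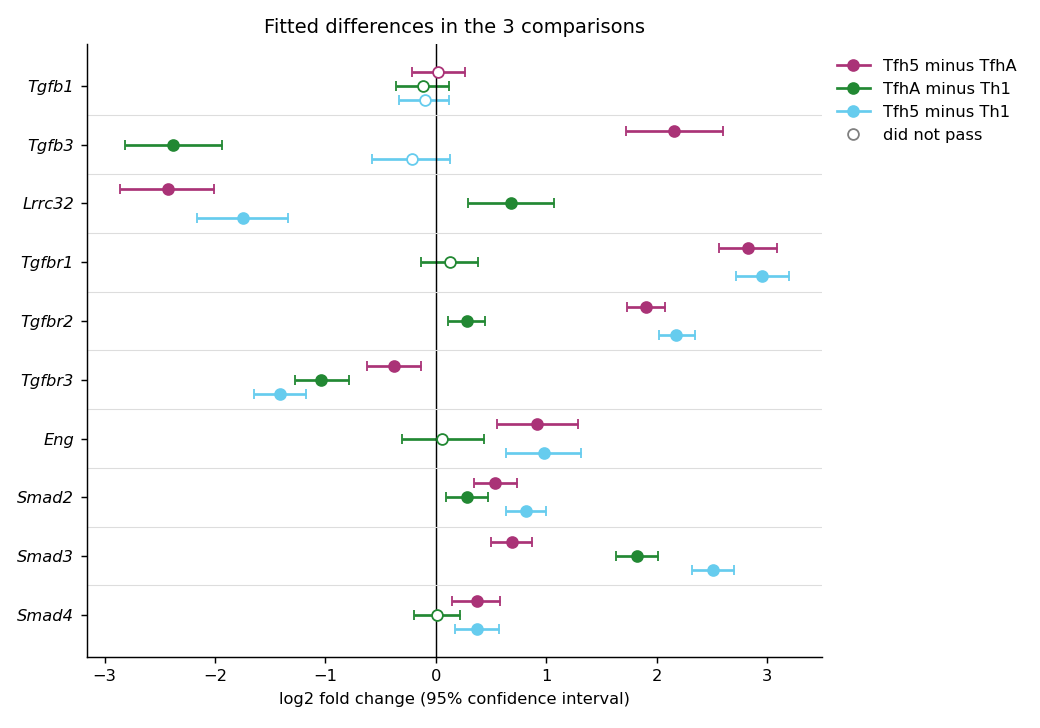
Fitted log2 fold change of each gene in the 3 comparisons, with 95% confidence intervals; filled points passed at an adjusted p under 0.05 and open points did not. Tgfbr1 and Eng passed only in the 2 comparisons with Tfh5, Tgfbr2 and Smad3 passed in all 3, and the 3 intervals of Tgfb1 include 0.

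The co-receptors went in opposite directions. Tgfbr3 (Entrez gene 21814, chromosome 5, 107106567 to 107289629) encodes betaglycan, which presents ligand to the type II receptor and can be shed as a soluble trap. It had 120.0, 114, 125, 152 and 126 CPM in Th1, 68.6, 58.3, 56.0 and 65.5 CPM in TfhA, and 34.9, 49.7, 52.1, 56.3 and 46.3 CPM in Tfh5. Th1 stood above both follicular helper cultures without overlap, whereas TfhA and Tfh5 overlapped at about 56 CPM. Tgfbr3 was 2.05-fold lower in TfhA than in Th1 (log2 fold change -1.04 ± 0.12, adjusted p = 1.37e-07) and 2.67-fold lower in Tfh5 than in Th1 (-1.41 ± 0.11, adjusted p = 5.73e-11). The further decrease from TfhA to Tfh5 was 1.3-fold (-0.38 ± 0.12, adjusted p = 0.00912). A part of its exons (4.9%) overlaps the annotated gene Gm43422 on the same strand.

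Eng (Entrez gene 13805, chromosome 2, 32646595 to 32682669) encodes endoglin, a co-receptor best known from endothelial cells. It had 12.4, 9.71, 9.45, 11.1 and 8.76 CPM in Th1, and 12.2, 12.0, 7.15 and 11.5 CPM in TfhA. In Tfh5 it had 17.1, 21.5, 20.3, 15.9 and 26.6 CPM, above every library of the other groups. Eng was 1.89-fold higher in Tfh5 than in TfhA (log2 fold change 0.92 ± 0.18, adjusted p = 0.000111) and 1.97-fold higher than in Th1 (0.98 ± 0.17, adjusted p = 1.36e-05). Between TfhA and Th1 it did not pass (0.06 ± 0.18, 95% confidence interval -0.31 to 0.44, adjusted p = 0.8). A short part of the Eng exons (1.7%) overlaps the annotated gene Fpgs on the opposite strand. The 6 endothelial markers summed to between 28.1 and 34.2 CPM in Th1, 97.9 and 131 in TfhA, and 156 and 167 in Tfh5, mostly from Pecam1, which T cells also express. Kdr, the other endothelial marker that was tested, had a different order, at 4.34 CPM in Th1, 0.183 in TfhA and 0.157 in Tfh5 (log2 fold change -4.65 for Tfh5 against Th1, adjusted p = 2.69e-08). Cdh5, which defines endothelium, had no count in Th1 or TfhA and 5 counts in Tfh5, Vwf had 1 count in Th1 alone, and Cldn5 had none.

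Among the transducers, Smad3 (Entrez gene 17127, chromosome 9, 63646766 to 63757994) had the largest differences. It had 35.5, 28.4, 26.9, 29.3 and 30.5 CPM in Th1, 116, 108, 98.1 and 104 CPM in TfhA, and 173, 171, 169, 167 and 179 CPM in Tfh5. The 3 groups were separate and rose in that order. Smad3 was 3.54-fold higher in TfhA than in Th1 (log2 fold change 1.82 ± 0.09, adjusted p = 5.6e-14), a further 1.61-fold higher in Tfh5 than in TfhA (0.69 ± 0.09, adjusted p = 5.2e-07), and 5.70-fold higher in Tfh5 than in Th1 (2.51 ± 0.09, adjusted p = 8.02e-18). With TGF-β blocked, Smad3 was thus above its Th1 level, a step at which Tgfbr1 did not pass.

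Smad2 (Entrez gene 17126, chromosome 18, 76241090 to 76311748), the other receptor-activated SMAD of the pathway, had smaller differences in the same directions. It had 73.9, 79.6, 82.0, 87.3 and 83.4 CPM in Th1, 104, 90.4, 89.0 and 111 CPM in TfhA, and 151, 157, 133, 132 and 146 CPM in Tfh5. The groups did not overlap, although the highest Th1 and the lowest TfhA library differed by less than 2 CPM. Smad2 was 1.46-fold higher in Tfh5 than in TfhA (log2 fold change 0.54 ± 0.09, adjusted p = 2.14e-05) and 1.77-fold higher than in Th1 (0.82 ± 0.09, adjusted p = 1.12e-08). The difference of TfhA from Th1, 1.21-fold (0.28 ± 0.09, adjusted p = 0.0174), was not called without TfhA replicate 1 (adjusted p = 0.0546) or replicate 5 (0.0936), nor without a filter on low counts (0.0682), within 0.0101 to 0.0936 over all alternatives.

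The share of Smad3 in Smad2 plus Smad3, per kilobase, was 38.2% ± 3.65 in Th1, 64.4% ± 2.33 in TfhA and 66.6% ± 1.45 in Tfh5. Th1 libraries (35.3% to 44.4%) lay below all libraries of both follicular helper cultures (61.1% to 67.9%), and TfhA and Tfh5 overlapped. Within this pair, the more abundant transcript per kilobase was therefore Smad2 in Th1 and Smad3 in the other cultures. As a share of raw counts, with no correction for exon length, Smad3 made up 27.1%, 52.0% and 54.5%. In TfhA replicate 5 the raw count of Smad2 (1045) was above that of Smad3 (984). Smad3 had the higher raw count in the other TfhA and Tfh5 libraries.

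**Figure D3:**
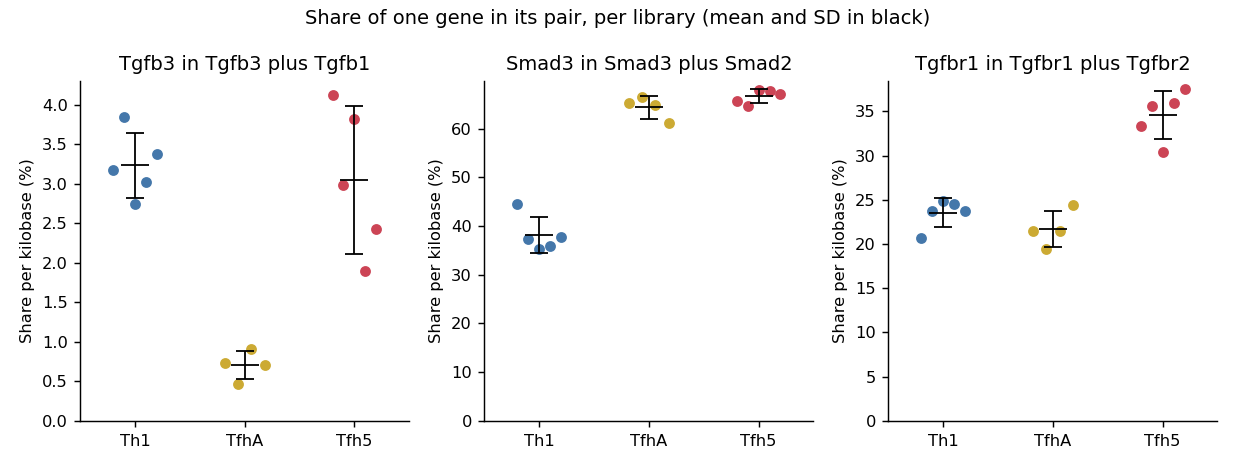
Share of one gene in the sum of a pair, as percent of the transcript per kilobase of exon, in each library; black marks are the mean and SD (Th1 n = 5, TfhA n = 4, Tfh5 n = 5), and each axis starts at 0. The share of Tgfb3 is lowest in TfhA (0.473% to 0.914%), that of Smad3 lowest in Th1 (35.3% to 44.4%) and that of Tgfbr1 highest in Tfh5 (30.5% to 37.5%).

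Smad4 (Entrez gene 17128, chromosome 18, 73634790 to 73703791), the partner shared by all receptor-activated SMADs, was the most even of the transducers. It ranged from 65.8 to 74.9 CPM in Th1 (median 70.6), from 60.9 to 79.0 CPM in TfhA (median 72.2) and from 79.4 to 107 CPM in Tfh5 (median 94.2). The lowest Tfh5 and the highest TfhA library were less than 1 CPM apart. Smad4 was 1.29-fold higher in Tfh5 than in TfhA (log2 fold change 0.37 ± 0.10, adjusted p = 0.00385) and 1.29-fold higher than in Th1 (0.37 ± 0.10, adjusted p = 0.00154). Between TfhA and Th1 the difference was 0.01 ± 0.10 (95% confidence interval -0.20 to 0.22, adjusted p = 0.962).

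Set against Th1, 6 of the 10 genes passed in TfhA (Tgfbr2, Smad2, Smad3 and Lrrc32 higher, Tgfb3 and Tgfbr3 lower), beside 44.8% of all tested genes (23.2% higher and 21.6% lower). For 5 of the 10 the libraries did not overlap, beside 38.1% of all tested genes. In Tfh5 against Th1, 8 of the 10 passed (Tgfbr1, Tgfbr2, Eng, Smad2, Smad3 and Smad4 higher, Tgfbr3 and Lrrc32 lower), beside 64.6% of all tested genes (31.5% higher and 33.0% lower), and 8 did not overlap, beside 50.2%. At least 2-fold changes were reached by 3 genes in TfhA against Th1 and 5 in Tfh5 against Th1, beside 13.7% and 27.9% of all tested genes. The median log2 fold changes of the 10 were 0.10 and 0.60 in these comparisons, against 0.03 and -0.01 for all tested genes. The 3 comparisons share libraries, so their values for a gene are not independent of each other.

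Levels of different genes were compared per kilobase of merged exons of transcripts with a RefSeq match. In all 3 cultures Tgfb1 was far above the other 9 genes, at 164 ± 17.97, 151 ± 27.2 and 153 ± 18.7 CPM per kilobase in Th1, TfhA and Tfh5, and at 70.9, 65.1 and 65.97 with the exons of all annotated transcripts, still the highest. In Th1 the next were Tgfbr3 (20.9 ± 2.41) and Smad4 (20.9 ± 0.973 CPM per kilobase), which did not differ beyond their spread. Smad2 and Tgfbr2 followed at 9.58 and 9.40, then Smad3, Lrrc32 and Tgfb3 at 5.92, 5.89 and 5.51, and last Tgfbr1 and Eng at 2.90 and 2.88 CPM per kilobase. Within each of these sets the libraries overlapped, and between sets they did not.

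In TfhA the order began with Smad4 (21.0 ± 2.29) and Smad3 (20.95 CPM per kilobase) after Tgfb1, followed by Smad2, Tgfbr2, Tgfbr3 and Lrrc32 at 11.6 down to 9.44, each overlapping its neighbour. Tgfbr1 and Eng stood at 3.17 and 2.998, and Tgfb3 was last at 1.05 ± 0.204 CPM per kilobase. In Tfh5 the second place went to Tgfbr2 (42.6 ± 1.99), which was separate from Smad3 (33.8 ± 0.899), itself separate from Smad4 (27.0 ± 3.44). Smad4 overlapped with Tgfbr1 (22.6 ± 2.43), and Smad2 (17.0 ± 1.28 CPM per kilobase) came next without overlap. Tgfbr3, Eng and Tgfb3 formed an overlapping run from 7.86 to 4.72, and Lrrc32 was last at 1.77 ± 0.592 CPM per kilobase. Tgfbr1 thus moved from the bottom of the order to the middle, and Lrrc32 from the middle to the bottom.

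**Figure D4:**
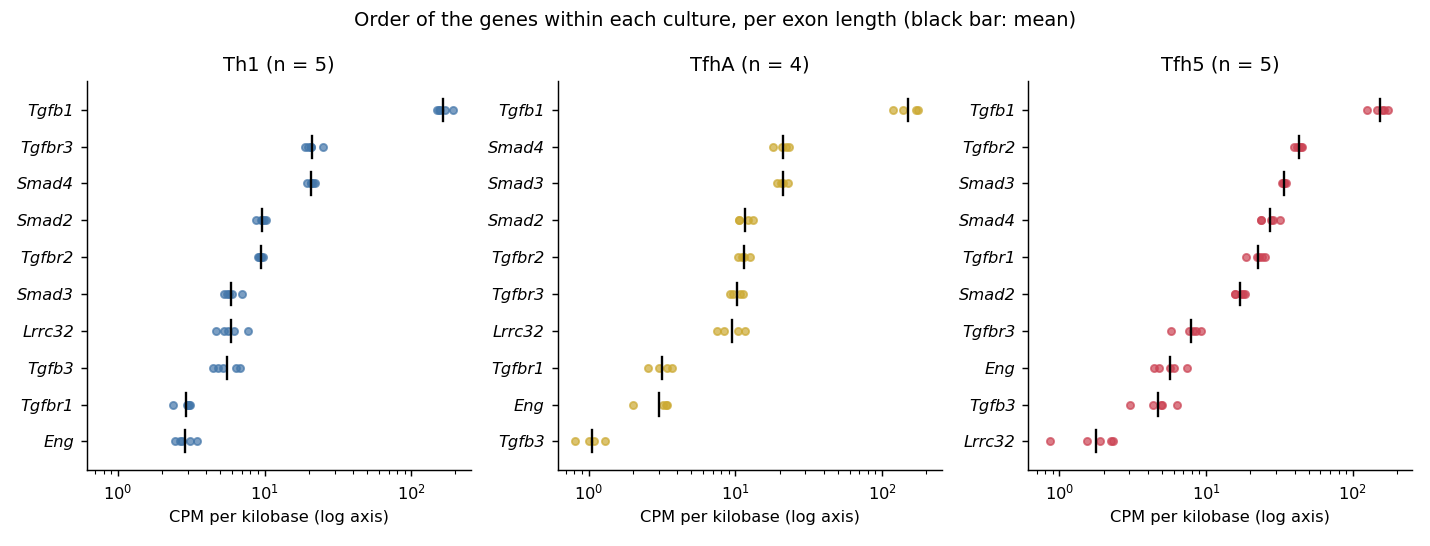
Levels of the 10 genes in CPM per kilobase of exon (log axis) in each culture, ordered by mean; points are libraries and black bars are means. Tgfb1 is at the top in each panel, at 151 to 164 on average, and the last place is held by Eng in Th1, Tgfb3 in TfhA and Lrrc32 in Tfh5.

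The genes nearest in pattern were sought for the 6 genes of the set with a called change of at least 2-fold, as the smallest root mean square difference of centred log2 CPM over the 14 libraries, which share their groups and depths. For Tgfbr1 these were Rnf149 (0.151), Slc38a6 (0.225) and Selenop (0.253), and for Tgfbr2 Otulinl (0.124), Ipmk (0.133) and Foxo1 (0.136). Smad3 was nearest to Pecam1 (0.170), Slc9b2 (0.180) and Nxpe3 (0.190). Tgfbr3 was nearest to Dennd4a (0.137), Plagl2 (0.145) and Ptprj (0.150). The distances were larger for the genes with lower counts, with Timp1 (0.348), Abca1 (0.355) and Jun (0.392) for Tgfb3, and Rmi2 (0.335), Map6 (0.345) and Tmem109 (0.372) for Lrrc32. Timp1 shared the low point of Tgfb3 in TfhA, with 304, 65.0 and 251 CPM in Th1, TfhA and Tfh5.

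The wider pathway was described with 6 lists written from general knowledge, with earlier results of these data known. The counts below stand beside the shares of all tested genes. In Tfh5 against TfhA, 27.4% of these were higher and 30.1% lower (median log2 fold change -0.01). In TfhA against Th1 the shares were 23.2% and 21.6% (median 0.03). In Tfh5 against Th1 they were 31.5% and 33.0% (median -0.01). Among the 5 other SMADs, Smad1, Smad5, Smad6 and Smad7 were higher in Tfh5 than in TfhA and Smad9 was lower, with a median log2 fold change of 0.93. Smad7, the inhibitory SMAD that blocks the type I receptor, rose 6.40-fold to 95.4 ± 12.6 CPM (adjusted p = 2.83e-14). Smad5 and Smad1, which carry bone morphogenetic protein signals, rose 1.91-fold (adjusted p = 1.09e-06) and 1.42-fold (adjusted p = 0.00058). Against Th1, none of the 5 was higher in TfhA and 3 were lower (median -0.42), among them Smad7 at 1.35-fold (adjusted p = 0.0126, and 0.0566 without TfhA replicate 4, within 0.00156 to 0.0566 over alternatives), and in Tfh5 the same 4 were higher and Smad9 lower (median 0.51). Smad6 and Smad9 stayed at low counts, with 3, 7 and 122 counts of Smad6 and 230, 15 and 0 counts of Smad9 over the Th1, TfhA and Tfh5 libraries.

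Of 11 tested receptors and co-receptors of related ligands, 6 were higher in Tfh5 than in TfhA and 2, Nrp1 and Cd109, were lower (median 0.47). Acvr2a, a type II receptor for activins, rose from 9.14 ± 1.92 to 181 ± 21.8 CPM (19.8-fold, log2 fold change 4.31 ± 0.14, adjusted p = 2.59e-18), a larger fold change than any of the 10 genes had. Bmpr2, the type II receptor for bone morphogenetic proteins, rose 3.98-fold, the type I receptor Acvrl1 2.08-fold and the co-receptor Rgmb 5.32-fold. Against Th1, Acvr2a, Acvrl1 and Nrp1 were higher and Acvr1, Acvr1c, Bmpr1a, Bmpr2 and Bambi lower in TfhA (median -0.01). In Tfh5, Acvr1b, Acvr2a, Acvrl1, Bmpr2 and Rgmb were higher and Acvr1c, Bambi and Cd109 lower than in Th1 (median 0.02). Acvr1c, the type I receptor ALK7, was at 9.02 ± 1.61 CPM in Th1 and 12.8-fold lower in TfhA, at 0.704 ± 0.255 CPM. Its Tfh5 level was 0.228 ± 0.458 CPM (log2 fold change from Th1 -5.29 ± 0.51, and -8.10 without Tfh5 replicate 4, the library that held most of its Tfh5 counts). Nrp1, a neuropilin that also binds TGF-β, was 2.06-fold higher in TfhA than in Th1.

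Of 6 tested related ligands, Inha and Lefty1 were higher in Tfh5 than in TfhA and Inhba, Bmp2 and Bmp7 lower (median -1.04). Inhba and Bmp7 were higher and Inha and Bmp2 lower in TfhA than in Th1 (median -0.11), and Lefty1 was higher and Inhba and Bmp2 lower in Tfh5 than in Th1 (median 0.04). Inhba, the activin A subunit, was the only one that passed with at least 5 CPM in a group, at 2.84 ± 0.136, 7.72 ± 1.06 and 1.29 ± 0.576 CPM in Th1, TfhA and Tfh5. It rose 2.701-fold from Th1 to TfhA (adjusted p = 6.35e-05) and was 5.93-fold lower in Tfh5 than in TfhA (adjusted p = 2.46e-08). Its order across the cultures was that of Lrrc32.

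Of 11 tested genes of ligand latency and activation, Itgav, Thbs1, Furin, Mmp14 and Plau were higher in Tfh5 than in TfhA and Nrros, Mmp9 and Dcn lower (median 0.54). Furin, the convertase that cleaves the TGF-β precursor, had 792 ± 86.5 CPM in Th1, 48.3 ± 7.51 in TfhA and 245 ± 37.1 in Tfh5. It was 16.4-fold lower in TfhA than in Th1 (log2 fold change -4.03 ± 0.14, adjusted p = 2.9e-17) and 5.07-fold higher in Tfh5 than in TfhA (2.34 ± 0.13, adjusted p = 5.78e-14), so that its low point, like that of Tgfb3, was in TfhA. Thbs1, a matrix protein that releases TGF-β from its latent form, rose 10.8-fold in Tfh5 over TfhA. It rose by a log2 fold change of 4.27 ± 0.45 over Th1 (5.46 without Th1 replicate 2). Plau, the urokinase protease, rose by 5.33 ± 0.56 over TfhA (6.00 without TfhA replicate 2) and 5.13 ± 0.48 over Th1 (5.73 without Th1 replicate 5). Against Th1, Nrros and Dcn were higher and Ltbp3, Itgav, Itgb8, Furin and Mmp9 lower in TfhA (median -0.65). In Tfh5, Thbs1, Mmp14 and Plau were higher than in Th1 and 6 of the 11 lower (median -0.58).

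Nrros, which tethers latent TGF-β as Lrrc32 does, was 2.12-fold higher in TfhA (42.7 ± 3.57 CPM) than in Th1 (20.1 ± 2.58 CPM). The integrin chain gene Itgav, part of the integrins that activate TGF-β, was 2.17-fold lower in TfhA and 1.49-fold lower in Tfh5 than in Th1. The proteoglycan gene Dcn, whose product binds TGF-β, had 0.966 ± 0.196 CPM in Th1, 10.3 ± 2.40 in TfhA and no count in Tfh5, where it was at least 188-fold lower than in TfhA if the 5 libraries together are set to 3 counts.

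Of 31 tested regulators of the receptors and SMADs, 20 were higher in Tfh5 than in TfhA and 3, Fkbp1a, Strap and Ep300, lower (median 0.55). Tgif1, a corepressor of SMAD complexes, rose 6.06-fold, and the SMAD corepressor Skil and the inhibitor Ldlrad4 were at 361 ± 5.91 and 108 ± 7.85 CPM in Tfh5 against 40.2 ± 4.45 and 1.87 ± 1.26 in TfhA. Dab2, an adaptor that links the receptors to SMADs, rose by a log2 fold change of 3.95 ± 0.46 over TfhA and 6.30 ± 0.52 over Th1 (7.26 without Th1 replicate 4). Against Th1, 5 were higher and 10 lower in TfhA (median -0.05), with Usp11, a deubiquitinase of the pathway, 4.01-fold, Pmepa1 2.19-fold and Traf6 1.89-fold lower. In Tfh5 18 were higher than in Th1 and Hgs, Fkbp1a, Tab2 and Traf6 lower (median 0.47).

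Of 12 tested genes known as SMAD targets, of which Smad7, Skil, Ski, Ldlrad4 and Pmepa1 stand in the lists above, those 5 and Tgfbi and Itgae were higher in Tfh5 than in TfhA and 5 were lower (median 1.95). Tgfbi, a TGF-β-induced matrix protein, rose by 6.09 ± 0.51 (7.21 without TfhA replicate 5, which held most of its TfhA counts) and the integrin gene Itgae 8.39-fold. Those that were lower included Cdkn1a, Id2, Id3 and Junb, with log2 fold changes of -2.40, -0.57, -1.70 and -0.79. Cdkn1a, a cell cycle inhibitor, was 2.62-fold lower in TfhA than in Th1, and Id2 was 1.97-fold higher. In TfhA Id2 and Id3 were higher and 9 of the 12 lower than in Th1 (median -0.84), and in Tfh5 8 were higher and 4 lower (median 1.03).

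**Figure D5:**
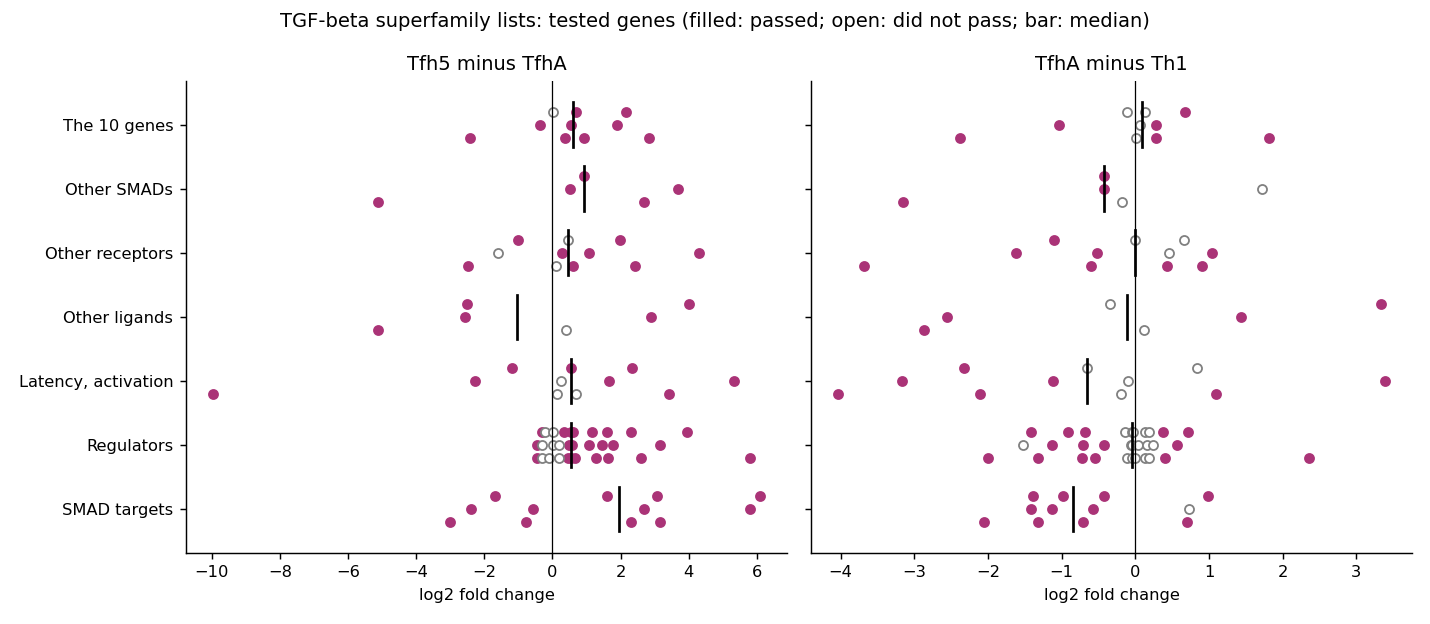
Log2 fold changes of all tested genes of the 10-gene set and of 6 lists of the wider pathway, for Tfh5 minus TfhA (left) and TfhA minus Th1 (right, with its own scale); filled points passed, open points did not, and black bars are medians. Genes with no count in one group, such as Dcn at the far left, stand at their fitted value, which is no bound. In the left panel the SMAD targets have a median of 1.95 with 7 genes higher and 5 lower, and in the right panel a median of -0.84.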

How the data were processed

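Bulk RNA of sorted CD4 T cells was sequenced in 14 libraries, grouped by their titles, from 100 ng of RNA with a Lexogen SENSE mRNA kit. The deposited values are raw counts per Entrez gene, made with STAR 2.7.2b and featureCounts 1.6.4 on mm10 per the submitters' processing notes. The sources used here do not give the annotation, strand setting or treatment of multi-mapping reads. Library totals were 8805921 to 16108059 counts.

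Symbols and positions are from RefSeq (GRCm38.p6), which matched 25275 of 27179 identifiers, and exon lengths from GENCODE M21. With R 4.3.3, all libraries entered a single edgeR 4.0.16 fit of group means (filterByExpr, TMM, quasi-likelihood F test, two-sided). The code was run on simulated counts with few changed genes and the same spread for every gene. That setting is simpler than these data, so it does not measure false calls in them. The SE is the log2 fold change divided by the square root of F, and 95% confidence intervals use its degrees of freedom. Log2 CPM carry a prior count of 2. Alternatives were DESeq2 1.42.0, RLE and upper-quartile scaling, no filter, the 2 groups alone, the replicate number as a block and leaving out each library. Shares within pairs and levels have no test.

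The 10 genes and the lists (6 of the pathway, 8 of cell markers) were chosen with earlier results of these data known. Named from each pathway list are up to 4 passing genes per comparison with at least 5 CPM in a group, by size of change. Other genes were named after their values were seen: members of small counts and cell markers. Deviations of libraries with the same replicate number had correlations of -0.048 to 0.155. Such weak correlations cannot decide whether the numbers pair the libraries, and the main fit treated them as unpaired. The values of 1 gene of the SMAD target list are not reported here.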

Additional observations from a re-analysis of the deposited data

Results flagged for a closer look

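Dixon's test was applied to 39 sets of library values (the 10 genes and 3 shares in 3 groups) and marked 4 of them, where chance marks about 1 in 20. In Th1, replicate 1 stood below the other libraries for Tgfbr1, at 14.4 CPM against 17.9 to 18.6 CPM. In the same library the share of Tgfbr1 in the receptor pair was 20.7% against 23.7% to 24.9%, and the share of Smad3 in Smad2 plus Smad3 was 44.4% against 35.3% to 37.8%. In TfhA, replicate 4 stood low for Eng, at 7.15 CPM against 11.5 to 12.2 CPM.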

How the results depend on the processing

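Of the 10 genes, 9 passed between Tfh5 and TfhA and 8 between Tfh5 and Th1 under each of the 21 alternatives, and 4 to 6 between TfhA and Th1, with 4 where no filter on low counts was used. With the replicate block the counts were 9, 6 and 8, and 7258, 5521 and 8285 of all genes passed. Same-numbered libraries of different groups had correlations of deviations of -0.048 to 0.155 over 13 pairs, and 5 of 14 libraries were nearest to one of their own number. Some differences that did not pass kept their sign under all alternatives. These were Tgfb1 in TfhA and in Tfh5 against Th1, Tgfbr1 in TfhA against Th1 and Tgfb3 in Tfh5 against Th1. Others changed sign when single libraries were left out. Tgfb1 between Tfh5 and TfhA then lay between -0.08 and 0.10, and Eng between TfhA and Th1 between -0.00 and 0.21. Smad4 between TfhA and Th1 lay between -0.05 and 0.07. Smad4 there was -0.01 with RLE scaling, with the 2 groups alone and with DESeq2, -0.02 with upper-quartile scaling, with the replicate block and without Th1 replicate 1 and Tfh5 replicate 1 together, and -0.03 with no filter. Shares moved with exon length. As raw counts Tgfb3 made up 4.94%, 1.10% and 4.66% of the ligand pair in Th1, TfhA and Tfh5, Smad3 27.1%, 52.0% and 54.5% of the SMAD pair, and Tgfbr1 18.5%, 17.0% and 28.0% of the receptor pair. With the exons of all transcripts, a choice made after seeing the data, as was leaving out the 2 libraries together, Tgfb3 made up 7.19%, 1.63% and 6.78%. The depth limits genes such as Tgfb2, with 6 to 28 counts in a group.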
